A study of Mus musculus with 22 samples.

Results

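The genes described here are 10 textbook members of the endoplasmic reticulum (ER) stress response, measured in the liver of adult male mice. They were taken by name: every probe that the array table lists as HSPA5, DDIT3, ATF4, XBP1, HERPUD1, DNAJB9, PDIA4, TRIB3, SDF2L1 or CRELD2 was included, whatever its values. They are written below with their mouse symbols, Hspa5, Ddit3 and so on. The 10 genes had 17 of the 45281 probes. Of these, 15 probes of 9 genes were detected often enough to be tested, among 9881 tested genes in all. Hspa5 was the member not detected often enough.

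The ER folds and exports the many proteins that a hepatocyte secretes. When unfolded proteins build up there, the sensors IRE1, PERK and ATF6 start the unfolded protein response. IRE1 splices the Xbp1 messenger RNA, PERK slows translation and raises the translation of ATF4, and ATF6 is cut to release a transcription factor. XBP1 and ATF6 raise chaperones and degradation factors, whereas ATF4 raises amino acid and redox genes together with Ddit3 and Trib3. The response is known in liver for its link to lipid handling and to diet.

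Liver RNA of 22 C57BL/6J males aged 29 weeks was hybridised to Illumina BeadChips, with 1 array per mouse. Dams were put on their diet at 5 weeks of age, were mated after 6 weeks of it, and stayed on it through gestation and lactation. The sons then ate their own diet for 24 weeks after weaning. Group names give the dam's diet first and the offspring's diet second, with L for the low-fat control diet and W for the western diet. The LL group held 6 mice, LW 5, WL 5 and WW 6, and no group carried a transgene or a deletion. Before deposit the submitters dropped 1 mouse as an experimental and 1 as a biological outlier, per the series text. No litter is given, so brothers may be present in a group and each mouse was treated as independent.

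Arrays had a mean intensity between 151 and 276 and detected between 13285 and 15105 probes. They lay on 4 slides that the groups filled unevenly: LL had 1 mouse on slide 1, 2 on slide 3 and 3 on slide 4, LW had 2, 2 and 1 on slides 1, 2 and 3, WL had 2, 2 and 1 on slides 2, 3 and 4, and WW had 2 on each of slides 1, 2 and 4. Of all genes tested, 1592 (16.1%) differed between slides in a fit that also held the groups, so a fit with slide as a block was also made, and both fits are drawn for each member in the plot of differences. Of 10 hepatocyte markers 9 were tested, with a summed level of 147000 to 183000 in all mice. All of these but Fgb were detected on 22 arrays. The Fgb probe was near background, detected on 7 arrays, and Tat was detected on no array. Fgb, a fibrinogen chain singled out because it passed, differed by -0.39 on average with the western diet after weaning (adjusted p 0.0178 in limma). It was detected on 3 arrays each of LL and WL, 0 of LW and 1 of WW. It was thus tested mainly because of the groups where it was higher, and no fall is read from it. Exocrine pancreas and plasma cells, both rich in ER chaperones, were represented by few markers. Only 3 of 24 pancreas markers were tested, with sums of 571 to 1170 in LL, 731 to 1450 in LW, 802 to 1420 in WL and 587 to 1260 in WW, and Prss2 and Amy2a5 were detected on no array. Of the 3, Cela1 was detected on 22 arrays, and Cela2a and Cela3b on 5 each. The sums add unlogged levels, so the brightest gene, here Cela1, weighs most. Of 11 plasma cell markers, 4 were tested, with sums of 508 to 1450, and Prdm1 was detected on no array. In whole liver, fewer cells of a type and less RNA per cell cannot be told apart.

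The upstream sequence of the members is shown because the ER stress response is known to act through short promoter elements. All 10 members had a window of 250 bases before and 50 after the start in the RefSeq set (GRCm38.p6). The ER stress response element (ERSE), CCAAT and CCACG with 9 bases between them, is bound by NF-Y and ATF6. It was searched on both strands together with ERSE-II (ATTGG and CCACG with 1 base between them), the ATF4 and CHOP element TGATGNAA and the XBP1 element TGACGTGG. Exact ERSE matches lay upstream of Hspa5 and Creld2, at chr2:34772025-34772043 and chr15:88819520-88819538, beginning 65 and 126 bases before the start. Such a match was present in 39 of 32851 windows (0.119%). ERSE-II was found in Herpud1 at chr8:94386377-94386387, from 52 bases before the start, and in 0.0365% of windows. The sites are written 5′ to 3′ on the strand that carries the element, with its fixed letters in capitals.
Hspa5 ERSE, gene strand: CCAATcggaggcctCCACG
Creld2 ERSE, opposite strand: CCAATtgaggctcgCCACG
Herpud1 ERSE-II, gene strand: ATTGGgCCACG

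With 1 letter allowed to differ, ERSE was present in 5 members against 1.5% of all windows, adding Ddit3 at chr10:127290702-127290720, Pdia4 at chr6:47813602-47813620 and Herpud1 at chr8:94386411-94386429. In these the last block of the element departs from CCACG, and all letters of both blocks are in capitals.
Ddit3: CCAATcagaaagcgGCACG
Pdia4: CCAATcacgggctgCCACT
Herpud1: CCAATggatggcagCCACA

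TGATGNAA was found in Herpud1, 112 bases before the start, in Trib3, from 15 to 22 bases after it, and in 3.97% of windows, and TGACGTGG in no member and in 0.676% of windows. Sdf2l1 held both CCAAT and CCACG, which alone occur in 37.4% and 32.8% of windows, but not at the ERSE spacing. The 250 bases before the start are given for Hspa5, Creld2, Herpud1 and Sdf2l1, whose levels are compared below, on the gene strand, with matches in capitals. In the Creld2 sequence the ERSE reads as its reverse complement. In the Herpud1 sequence the capitals mark, in order, the reverse complement of TGATGNAA, ERSE-II and the ERSE with 1 letter different, which runs 1 base past the start. The upstream 250 bases of the members were 50.4% to 69.2% G and C, against a median of 52.4% over all windows.
Hspa5, chr2:34771840-34772089, plus strand: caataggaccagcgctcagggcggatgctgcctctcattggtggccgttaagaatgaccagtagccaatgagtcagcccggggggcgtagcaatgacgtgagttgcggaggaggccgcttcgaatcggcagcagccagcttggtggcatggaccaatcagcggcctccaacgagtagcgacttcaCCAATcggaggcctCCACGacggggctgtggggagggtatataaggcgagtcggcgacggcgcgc
Creld2, chr15:88819396-88819645, plus strand: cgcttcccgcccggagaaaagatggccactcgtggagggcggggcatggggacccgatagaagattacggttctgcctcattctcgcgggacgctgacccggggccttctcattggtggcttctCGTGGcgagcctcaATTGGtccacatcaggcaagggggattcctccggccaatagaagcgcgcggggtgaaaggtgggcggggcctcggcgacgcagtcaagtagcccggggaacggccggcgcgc
Herpud1, chr8:94386179-94386428, plus strand: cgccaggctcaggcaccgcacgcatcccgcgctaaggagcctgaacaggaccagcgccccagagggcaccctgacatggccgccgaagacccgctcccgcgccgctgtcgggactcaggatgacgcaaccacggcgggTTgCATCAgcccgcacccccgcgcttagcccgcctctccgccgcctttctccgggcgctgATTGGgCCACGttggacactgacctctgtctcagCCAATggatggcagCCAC
Sdf2l1, chr16:17132384-17132633, minus strand: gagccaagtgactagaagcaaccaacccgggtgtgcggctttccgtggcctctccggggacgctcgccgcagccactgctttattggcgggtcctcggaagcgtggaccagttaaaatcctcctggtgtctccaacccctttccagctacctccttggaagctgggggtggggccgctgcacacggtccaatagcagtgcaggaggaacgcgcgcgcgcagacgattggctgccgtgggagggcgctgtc

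No member passed the test in any of the 7 comparisons of the design. The tool was limma, with group means fitted to all 22 arrays and a call at a Benjamini-Hochberg adjusted p under 0.05 over 9881 genes. For the offspring's western diet, 0 of 9 members were called in LW against LL, where 0.243% of all genes were called, and 0 of 9 in WW against WL, where 0.476% were. For the dam's western diet, 0 of 9 were called in WL against LL and 0 of 9 in WW against LW, with 0% of all genes called in each. The interaction, the change of the offspring-diet difference with dam diet, gave 0 of 9 against 0%. The offspring diet averaged over dam diets gave 0 of 9 against 2.71%, and the dam diet averaged over offspring diets 0 of 9 against 0%. At an unadjusted p under 0.05, 1 member stood out in LW against LL (Atf4), 1 in the interaction (Pdia4), 2 in the average offspring-diet difference (Atf4 and Xbp1), where 15.4%, 8% and 20% of all genes did. In the comparisons with 0, the share of all genes was 13.8% for WW against WL, 4.74% for WL against LL, 10% for WW against LW and 5.89% for the average dam diet. At 0 of 9, the values of no member were free of overlap between groups in LW against LL, WW against WL, WL against LL or WW against LW, where 2.34%, 1.82%, 0.374% and 0.638% of all genes were.

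Fitted differences nevertheless leaned in particular ways, which are given as a description. In LW against LL, 7 of 9 members were higher and their median log2 difference was 0.25, against 0.01 over all genes. In WW against WL, 3 were higher and the median was -0.11. In WL against LL, 4 were higher and the median was -0.0093. In WW against LW, 1 was higher and 8 lower, with a median of -0.26 against -0.0090 over all genes. These comparisons share groups, so their values are not independent of each other. With slide as a block the median fell to 0.04 in LW against LL, stayed at -0.11 in WW against WL and became -0.15 in WW against LW. The authors' deposited normalized values gave 0.06, -0.01 and -0.07.

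**Figure D1:**
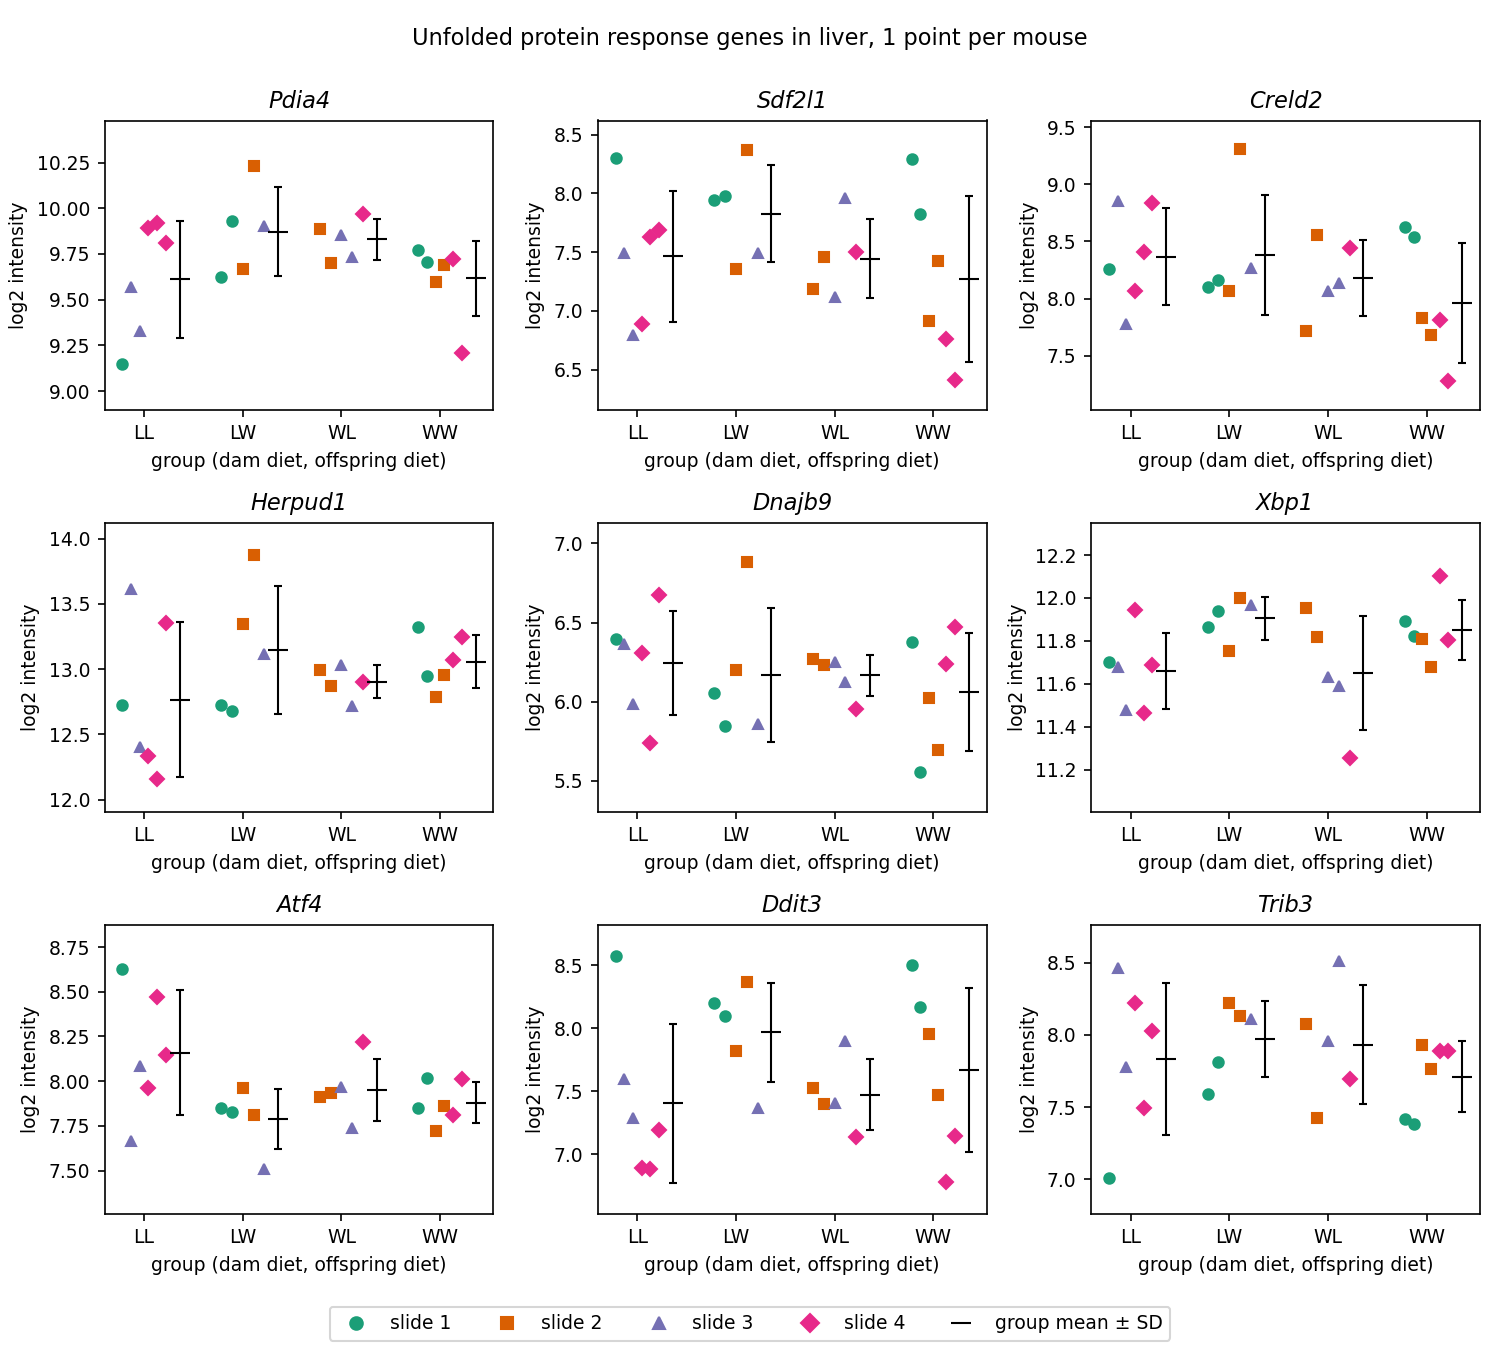
Log2 normalized intensity (vertical axis) of the 9 tested members in each of the 22 mice by group (horizontal axis), with colours and symbols for the 4 slides and bars for the group mean ± SD. The groups overlap for every gene, and LW replicate 4, a slide 2 mouse, is the highest mouse for Herpud1, Dnajb9, Pdia4, Sdf2l1 and Creld2.

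Hspa5 encodes BiP, the main chaperone of the ER lumen and the usual first marker of the response. Its only probe was near background. Intensities ran from -1.9 to 13 in LL (median 5.95), from -5 to 9.1 in LW (median 3.3), from -1.3 to 12.4 in WL (median 10.9) and from 6.4 to 18.2 in WW (median 11.95). It was detected at a p under 0.05 on 3 of 22 arrays, those of WW replicates 1, 5 and 6, and on 0 arrays of LL, LW and WL. The ranges overlap and no fold is given. Fitted without the detection filter among 19919 genes, Hspa5 passed in no comparison, with a lowest adjusted p of 0.601 in limma (WW against LW).

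Pdia4, a disulfide isomerase of the ER that works beside BiP, had the largest interaction of the members relative to its error. In LL its level ran from 9.15 to 9.92 with a median of 9.69, LW mice were at 9.62, 9.93, 9.67, 10.23 and 9.90, WL mice at 9.89, 9.70, 9.85, 9.74 and 9.97, and WW mice ran from 9.21 to 9.77 with a median of 9.70. Of LW and WL, 3 of 5 mice each lay above every WW mouse, and LL held the lowest mouse of all, so the groups overlapped. Group means were 9.87 ± 0.24 (SD, n = 5) in LW, 9.83 ± 0.11 (n = 5) in WL, 9.62 ± 0.21 (n = 6) in WW and 9.61 ± 0.32 (n = 6) in LL. WL and WW differed by more than the SD within either, in a difference that did not pass (adjusted p 0.544 in limma), whereas the other neighbours in this order lay within their spread. The western diet after weaning went with a difference of 0.26 ± 0.14 (SE) for low-fat dams and -0.21 ± 0.14 for western-diet dams. Their contrast was -0.47 ± 0.20, with an unadjusted p of 0.0296 and an adjusted p of 0.591 in limma (-0.55 and 0.332 with slide as a block). WW replicate 6 was the lowest WW mouse, and without it, or any other mouse, the contrast stayed between -0.54 and -0.38.

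Sdf2l1, a small ER protein that works with the chaperone complex, varied among mice by 3.89-fold. LL mice ran from 6.80 to 8.30 with a median of 7.56, and LW mice were at 7.95, 7.98, 7.35, 8.37 and 7.49. WL mice were at 7.18, 7.46, 7.11, 7.96 and 7.50, and WW mice ran from 6.41 to 8.29 with a median of 7.17. The WW range covered almost all of the others, so high and low mice occurred in the same group. The difference between WW and LW, -0.56 ± 0.29 (SE; 95% interval -1.15 to 0.04), was the largest of the members in that comparison, with an adjusted p of 0.528 in limma. It was -0.69 within slide 2 and 0.10 within slide 1, with 2 mice per group in each, and -0.13 in the authors' deposited normalized values.

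Creld2, an ER protein with disulfide isomerase activity, had the widest range of the members, 4.09-fold. Values in LL ran from 7.78 to 8.85 with a median of 8.33, and WW mice from 7.28 to 8.63 with a median of 7.82. LW mice were at 8.10, 8.16, 8.07, 9.31 and 8.27, and WL mice at 7.71, 8.56, 8.06, 8.14 and 8.44. LW replicate 4 stood well above its group. WW lay -0.42 ± 0.25 (SE) from LW (adjusted p 0.576 in limma), and leaving out mice in turn moved this between -0.55 and -0.19, the latter without LW replicate 4. In the authors' deposited normalized values it was -0.14. A further Creld2 probe gave -0.10 for the same comparison and -0.33 for LW against LL, where the first gave 0.02.

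WW replicate 6 was the lowest of the 22 mice for Sdf2l1 and Creld2 and the lowest WW mouse for Pdia4. Its summed levels of 8 tested macrophage markers (of 10), 9460, and 6 tested stellate cell markers (of 8), 6660, were the highest of any mouse. The other groups' macrophage sums were 3890 to 7940 in LL, 3600 to 4440 in LW and 3230 to 4730 in WL, and the WW sums started at 3880. Stellate sums were 2670 to 4600 in LL, 1890 to 3850 in LW and 2710 to 4610 in WL, and started at 2510 in WW. Cd5l and Itgax among the macrophage markers and Col1a2 among the stellate markers were detected on no array. WW replicate 6 also had the highest cholangiocyte sum, 588 over 3 tested of 5 markers, where LL reached 474, LW 323 and WL 379, with Krt19 and Epcam detected on no array. Its lymphocyte sum, 163 over 4 tested of 9 markers, was level with that of WL replicate 5, the highest of the other groups, with Cd4, Cd8a and Ptprc detected on no array. As these sums add unlogged levels, the brightest gene of a list weighs most. Over all mice Dcn reached 12.59 in log2, where no other tested stellate marker exceeded 8.19. Sox9 reached 8.93, where the other tested cholangiocyte markers, Spp1 and Krt7, reached 6.80 and 5.10. The part of these cell types in the low values was not tested.

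Dnajb9, a co-chaperone of BiP and a target of XBP1, spanned 5.55 to 6.88 over all mice. Its group means were 6.24 ± 0.33 (SD, n = 6) in LL, 6.17 ± 0.43 (n = 5) in LW, 6.17 ± 0.13 (n = 5) in WL and 6.06 ± 0.37 (n = 6) in WW. All 4 lay within 0.18 of each other, the narrowest span of the members and less than the SD within LL, LW or WW.

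Herpud1 helps assemble the complex that takes misfolded proteins out of the ER for degradation. LL mice ran from 12.16 to 13.62 with a median of 12.57, LW mice were at 12.73, 12.68, 13.35, 13.87 and 13.12, WL mice at 13.00, 12.87, 13.03, 12.72 and 12.90, and WW mice ran from 12.78 to 13.32 with a median of 13.02. The LL mice lay at both ends, with 3 between 12.16 and 12.41 and 2 above 13.3. LW was 0.38 ± 0.23 (SE) above LL (95% interval -0.08 to 0.85, adjusted p 0.431 in limma), and its lower-intensity probe gave 0.21. This difference was 0.37 with slide as a block and 0.20 without LW replicate 4.

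Xbp1 encodes the transcription factor made active by IRE1 splicing, and whether the probe separates the spliced form was not examined. In LL it ran from 11.46 to 11.94 with a median of 11.68, LW mice were at 11.86, 11.94, 11.75, 12.00 and 11.97, WL mice at 11.96, 11.82, 11.63, 11.59 and 11.25, and WW mice ran from 11.68 to 12.10 with a median of 11.81. In order, the means were 11.91 ± 0.10 (SD, n = 5) in LW, 11.85 ± 0.14 (n = 6) in WW, 11.66 ± 0.18 (n = 6) in LL and 11.65 ± 0.27 (n = 5) in WL, so both groups fed the western diet after weaning had higher means than both fed the control diet, with overlapping mice. The differences were 0.25 ± 0.12 (SE) in LW against LL and 0.20 ± 0.12 in WW against WL, and their average was 0.22 ± 0.08 (95% interval 0.05 to 0.40). The WW against WL difference was 0.10 without WL replicate 5 and 0.08 when arrays were scaled to the 75th percentile. It was -0.14 within slide 2 (2 mice per group) and 0.70 within slide 4 (2 WW mice, 1 WL). LW against LL was 0.20 within slide 1 (2 LW mice, 1 LL) and 0.39 within slide 3 (1 LW mouse, 2 LL). The average had an unadjusted p of 0.0142 and an adjusted p of 0.136 in limma, the lowest of the members, and it did not pass. With slide as a block the average was 0.20 and its 95% interval, -0.0036 to 0.40, included 0 (adjusted p 0.286 in limma). Of the other settings and single mice left out, the lowest adjusted p was 0.0835, without WL replicate 1.

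Atf4, the transcription factor of the PERK arm, pointed the other way. Its LL values ran from 7.67 to 8.63 with a median of 8.12, LW mice were at 7.85, 7.83, 7.96, 7.81 and 7.51, WL mice at 7.91, 7.93, 7.97, 7.74 and 8.22, and WW mice ran from 7.72 to 8.02 with a median of 7.86. Of the LL mice, all but replicate 2 were level with or above the highest LW mouse. LW lay -0.37 ± 0.14 (SE) from LL, an 0.775-fold level (95% interval -0.66 to -0.08), with an unadjusted p of 0.0141 and an adjusted p of 0.211 in limma. With slide as a block it was -0.40 (adjusted p 0.272). The difference was -0.79 within slide 1 (2 LW mice, 1 LL) and -0.37 within slide 3 (1 LW mouse, 2 LL). That LL mouse, replicate 1, was the highest of all for Atf4, and that LW mouse, replicate 5, the lowest. In the authors' deposited normalized values the difference between LW and LL was -0.12. The other Atf4 probe gave -0.23 in LW against LL and -0.41 in WW against WL, where the first gave -0.07. Averaged over dam diets, the offspring-diet difference was -0.22 ± 0.10 (adjusted p 0.208), and with slide as a block -0.32 (adjusted p 0.0697). ATF4 is known to be controlled mainly at translation, which the array does not measure.

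Ddit3, which encodes the pro-apoptotic factor CHOP downstream of ATF4, showed the largest difference of any member in LW against LL and also the largest slide effect. In LL it ran from 6.88 to 8.58 with a median of 7.24, LW mice were at 8.20, 8.10, 7.82, 8.37 and 7.37, WL mice at 7.53, 7.40, 7.41, 7.90 and 7.14, and WW mice ran from 6.78 to 8.50 with a median of 7.72. All LW mice but replicate 5 were at 7.82 or above, and the 3 lowest LL mice lay on slide 4, which held no LW mouse. LW was 0.57 ± 0.29 (SE) above LL, a 1.48-fold level (95% interval -0.03 to 1.16, adjusted p 0.351 in limma). With slide as a block the difference was 0.03 (adjusted p 0.97). It was -0.43 within slide 1 (2 LW mice, 1 LL) and -0.08 within slide 3 (1 LW mouse, 2 LL). Averaged over dam diets the difference was 0.38 ± 0.20 (adjusted p 0.3) and 0.03 with slide as a block. The dimmer Ddit3 probe, detected on 19 arrays, ran the other way, at -0.18 in LW against LL and -0.19 in the average. In WW against WL it gave -0.20, where the brighter gave 0.20.

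Trib3, a pseudokinase induced by ATF4 and CHOP, had group means of 7.97 ± 0.26 (SD, n = 5) in LW, 7.93 ± 0.41 (n = 5) in WL, 7.83 ± 0.52 (n = 6) in LL and 7.71 ± 0.25 (n = 6) in WW. No difference between neighbours in this order exceeded their spread. Its 3 probes gave 0.14, 0.33 and 0.26 in LW against LL. The first of these was 0.33 with slide as a block and -0.02 without LL replicate 1.

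**Figure D2:**
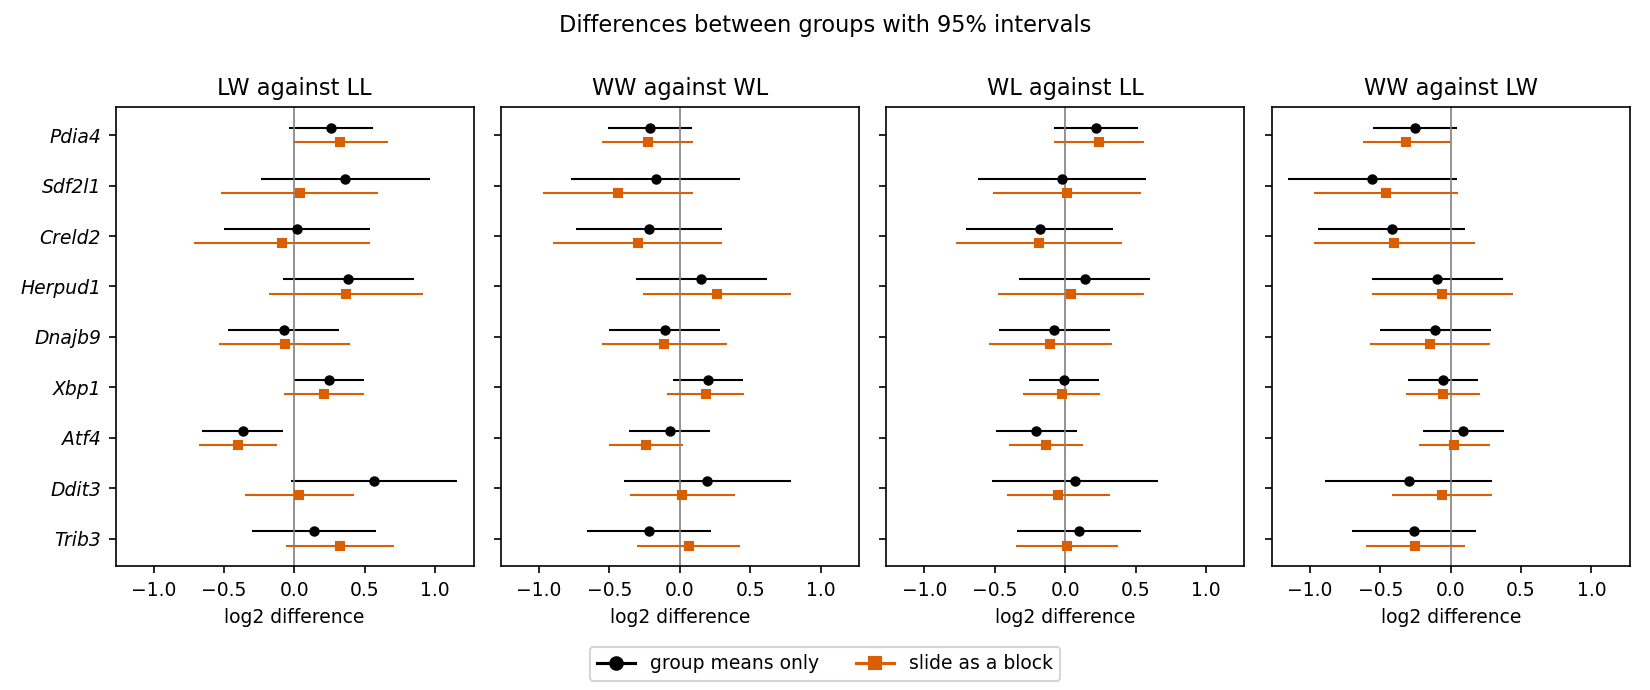
Log2 difference (horizontal axis) with its 95% interval for each of the 9 tested members (vertical axis) in LW against LL, WW against WL, WL against LL and WW against LW, from group means only (black) and with slide as a block (orange). The Ddit3 difference in LW against LL moves from 0.57 to 0.03, while that of Atf4 stays near -0.37.

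Some members differed between slides, although none passed between diet groups. In the fit with slide as a block, 3 of 9 members differed between slides at an adjusted p under 0.05 in limma, where 16.1% of all genes did. Ddit3 had slide means of 8.31, 7.76, 7.51 and 7.01 on slides 1 to 4 (adjusted p 0.00103). Its slide 1 mice, which came from LL, LW and WW, lay between 8.10 and 8.58, and its slide 4 mice, from LL, WL and WW, between 6.78 and 7.19. Removing slide took its SD within groups from 0.53 to 0.29. Sdf2l1 had slide means of 8.07, 7.45, 7.37 and 7.15 (adjusted p 0.049), falling in the same order as Ddit3. Trib3 was lowest where these were highest, at 7.44 on slide 1 against 7.92, 8.16 and 7.87 on the others (adjusted p 0.0259). Its other probes did not pass for slide over all probes, one with slide means of 6.42, 6.44, 6.42 and 6.12, lowest on slide 4 (adjusted p 0.365), and one with 5.17, 5.81, 5.66 and 5.55, lowest on slide 1 (adjusted p 0.0764). The dimmer Ddit3 probe ran against the brighter one here too, with slide means of 5.01, 5.51, 5.74 and 5.43 (adjusted p 0.0535 over all probes). Mean array intensity was 197, 243, 220 and 257 on slides 1 to 4, and its part in these differences was not tested.

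**Figure D3:**
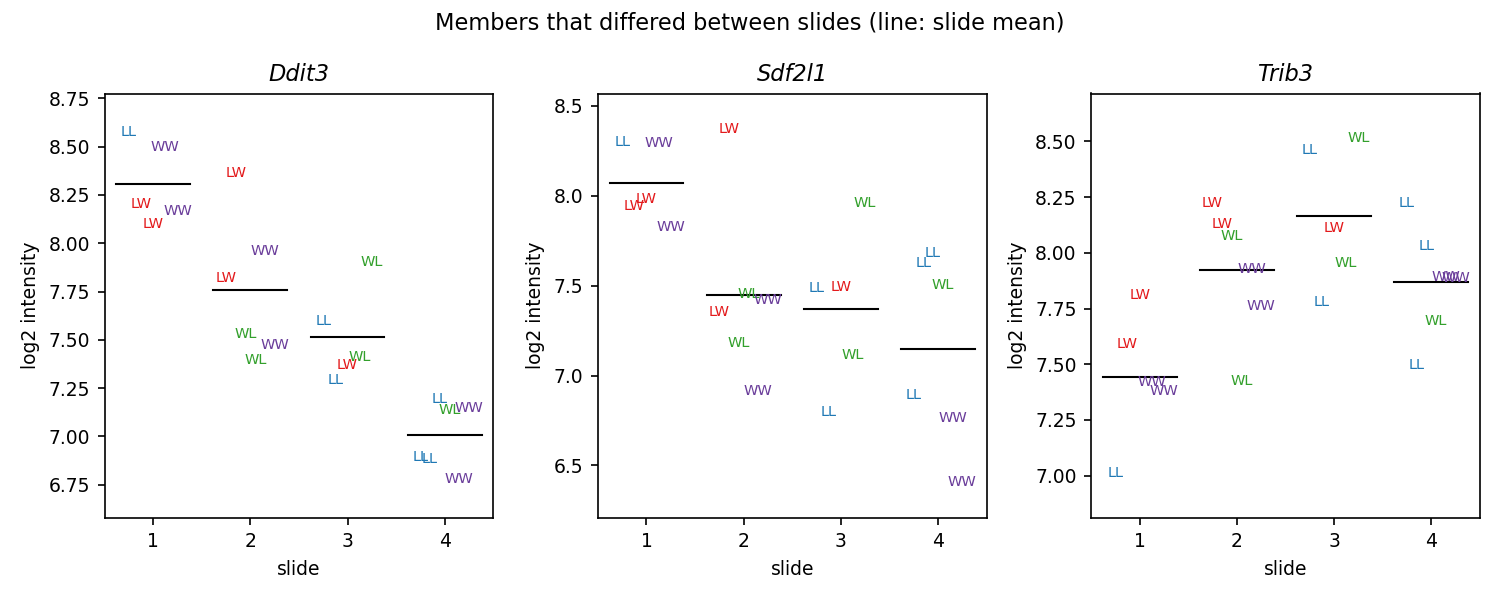
Log2 normalized intensity (vertical axis) of Ddit3, Sdf2l1 and Trib3 in the mice of each slide (horizontal axis), each mouse written as its group name and the line marking the slide mean. Mice of LL, LW and WW on slide 1 lie together between 8.10 and 8.58 for Ddit3, above the 6.78 to 7.19 of slide 4.

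Among mice of the same group, some members rose and fell together. Group means were subtracted, all 36 pairs of the 9 members were correlated over the 22 mice, and p-values came from permutation of values within groups, adjusted over the 36 pairs. The permutations did not keep to slides, so the p-values do not allow for slide, and r with slide means removed is given without a p. Each member was read from its brightest probe, and its other probes were not correlated. By Pearson's r, 4 pairs passed, and by Spearman's rho, 2. Over all pairs, 23 coefficients were positive and the median r was 0.16, against 27 and 0.19 once slide means were also removed.

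Sdf2l1 and Creld2 rose together, with r = 0.686 (permutation, adjusted p 0.0158) and rho = 0.727 (adjusted p 0.0178). With slide means removed r was 0.764, and without LW replicate 4 and WW replicate 6, the mice farthest from the Sdf2l1 median, 0.586. Herpud1 and Dnajb9 had r = 0.708 (permutation, adjusted p 0.0158) and rho = 0.739 (adjusted p 0.0178), with r = 0.734 after slide means were removed. For that pair, r was 0.509 without LW replicate 4 and LL replicate 5.

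Ddit3 and Sdf2l1 had r = 0.755 (permutation, adjusted p 0.0158) and rho = 0.632, which did not pass (adjusted p 0.116). These are the members whose levels fell from slide 1 to slide 4, and r was 0.591 once slide means were removed. Atf4 and Trib3 ran against each other, with r = -0.74 (permutation, adjusted p 0.0158) and rho = -0.582, which did not pass (adjusted p 0.122). LL replicate 1 was the highest mouse for Atf4 and the lowest for Trib3, and without it and LL replicate 5 r was -0.527. With slide means removed it was -0.652.

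Because Hspa5 could not serve as the reference, Sdf2l1 was used for the search for like genes, a choice made after its values were seen. Unnamed gene models among the 9881 genes were skipped in this and the later rankings of like genes. Across the other genes and 22 mice, with group means removed, those most like it were Cxxc1 (r = 0.804), Dnajb11 (0.796), Ero1b (0.788), Ss18l2, Fam220a, Copg1, Rhox2d, Arl6ip4, Ddit3 (0.755) and Tmem131 (0.748). With slide means also removed, the first 5 were Dnajb11 (0.813), Creld2 (0.764), Olfr503 (0.736), Ero1b (0.73) and Pdia3 (0.729). Dnajb11 was also the closest gene to Creld2 (0.806), and with slide removed it was at 0.816, behind Atp2b1 and Hspa8. Over the 17 tested genes of the chaperone list, the median r was 0.49 with Sdf2l1 (14 positive), 0.39 with Ddit3 (13 positive), 0.27 with Creld2 (15 positive) and -0.24 with Trib3 (5 positive). With slide means removed, these medians were 0.37, 0.25, 0.29 and -0.03. The other members had medians of 0.005 to 0.185, and of -0.061 to 0.15 with slide means removed, and the medians over all genes ran from -0.015 to 0.014. All of these values come from the same arrays and share their normalization and slides.

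Herpud1 kept different company. The genes closest to it were Jade1 (r = 0.828), Ppp2r5e (0.822), Mknk2 (0.788), Ppp1r3b (0.773), Tmc7 (0.763), Lpin1 (0.761), Arhgef26, Fkbp5 (0.725), Il6ra and Tsc22d3 (0.713), over the same 22 mice. Jade1, Ppp2r5e, Mknk2, Ppp1r3b, Tmc7 and Fkbp5 were again among its first 10 with slide means removed, at 0.818 to 0.854. Jade1 and Ppp2r5e were also among the 10 closest to Dnajb9, at 0.7 and 0.679.

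**Figure D4:**
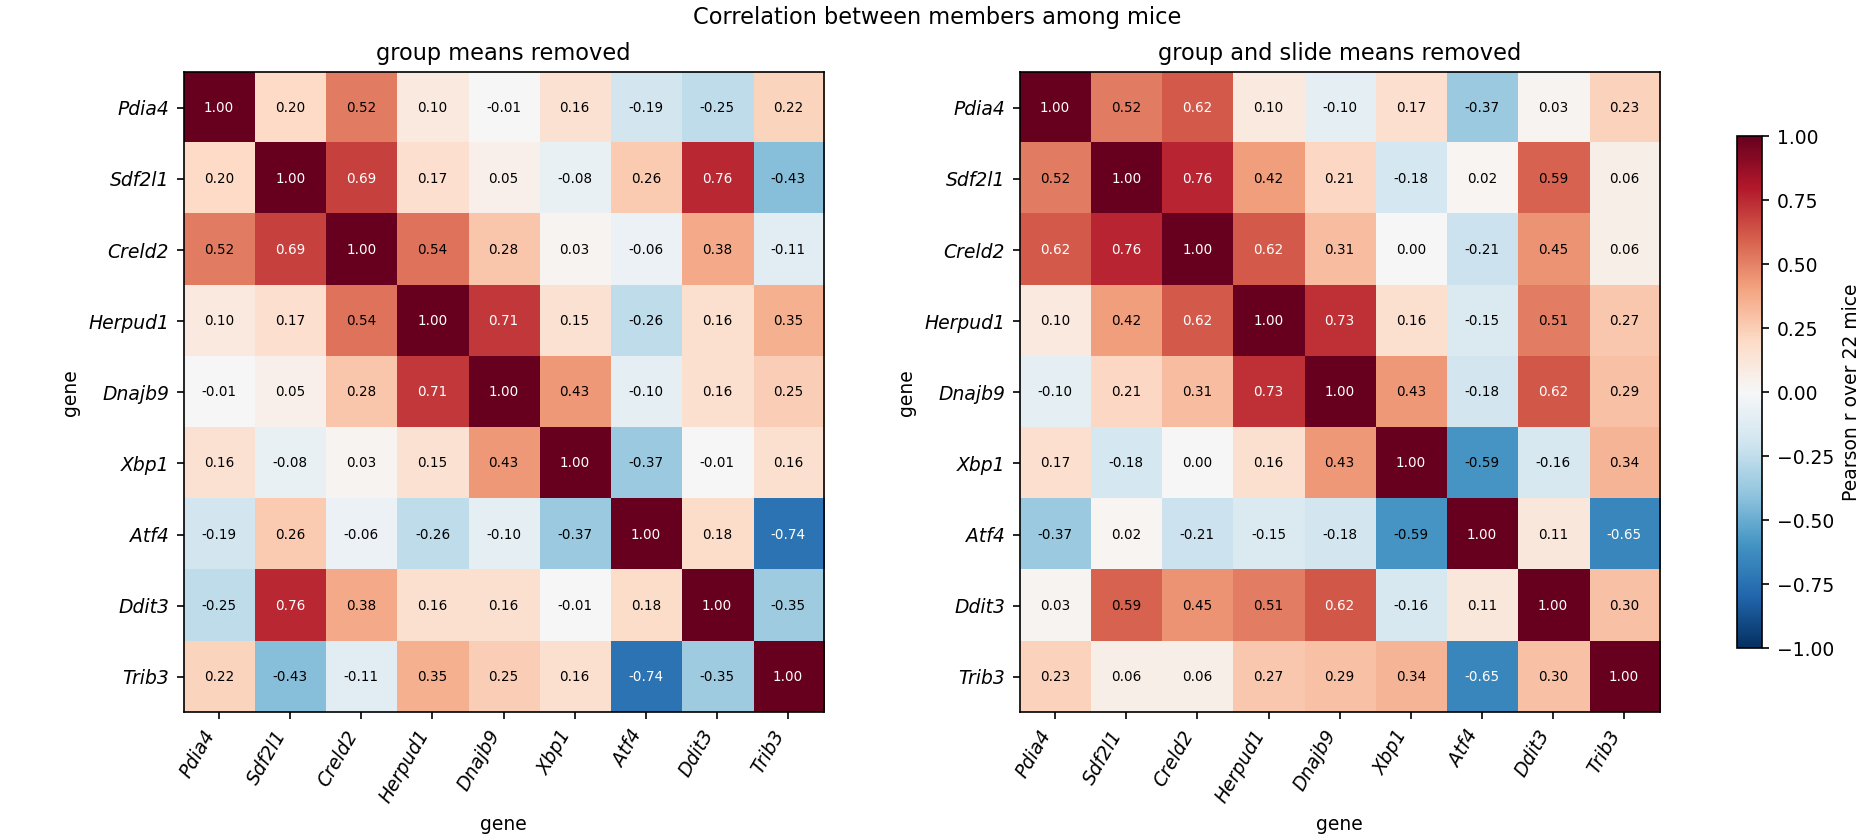
Pearson r between each pair of the 9 tested members (both axes) over 22 mice, with group means removed (left) and with group and slide means removed (right), on a colour scale from -1 to 1. The pair Sdf2l1 and Creld2 reads 0.69 and 0.76, and Atf4 against Trib3 -0.74 and -0.65.

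The wider pathway was read from 6 lists of 121 genes, of which 119 had a probe and 96 were tested. No gene of these lists passed in LW against LL, WW against WL, WL against LL, WW against LW, the interaction or the average dam-diet difference in limma, where 9, 13, 3, 9, 7 and 7 of 96 had an unadjusted p under 0.05. Of all genes, 15.4%, 13.8%, 4.74%, 10%, 8% and 5.89% did. In the average offspring-diet difference 1 of 96 passed, where 2.71% of all genes did, and 18 had an unadjusted p under 0.05, where 20% of all genes did. The gene that passed was Gpt2, the mitochondrial alanine aminotransferase and a known ATF4 target. Its level was 11.51 ± 0.27 (SD, n = 6) in LL, 11.74 ± 0.23 (n = 5) in LW, 11.33 ± 0.23 (n = 5) in WL and 11.91 ± 0.14 (n = 6) in WW. Gpt2 rose by 0.41 ± 0.10 (SE) on average with the western diet after weaning (adjusted p 0.0253), and the call was lost without LW replicate 3 and without WL replicate 5. In WW against WL it was 0.58 ± 0.14 higher (adjusted p 0.0561), and 0.72 with slide as a block (adjusted p 0.00277), a fit in which 3.2% of all genes passed in that comparison.

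ER chaperones and folding enzymes leaned down in WW against WL, with 3 of 17 tested genes higher and 14 lower, a median of -0.18 and 0 passing in either direction. In the same comparison all 8 tested macrophage markers were higher, with a median of 0.28, as were 4 of 6 stellate cell markers (median 0.29). Lower were 8 of 9 hepatocyte markers (median -0.09) and all 3 exocrine pancreas markers (median -0.40, and -0.65 with slide as a block). The 8 hepatocyte markers include Fgb, detected on 3 of 5 WL arrays and 1 of 6 WW arrays, from which no fall is read. Of the pancreas markers only Cela1 was detected on all 22 arrays, and Cela2a and Cela3b on 5 each. In each list 0 passed, but 1 macrophage marker did with slide as a block. The part of these cell types in the chaperone values was not tested. In LW against LL the chaperone list had 11 higher and a median of 0.06, again with 0 passing. The lowest p-values belonged to Ero1b, an ER oxidase (-0.57 ± 0.18, adjusted p 0.151), Ppib, a proline isomerase (-0.49 ± 0.18, adjusted p 0.222), Pdia3, a disulfide isomerase for glycoproteins (-0.37 ± 0.15, adjusted p 0.252), and Hyou1, a large chaperone and exchange factor for BiP (-0.45 ± 0.18, adjusted p 0.265), all in WW against WL. Hyou1 was detected on all 5 WL arrays but on 2 of 6 WW arrays, so few WW arrays measured it. Ppib was at -0.31 with slide as a block, and in that fit 2 of these genes passed in WW against WL, where 3.2% of all genes did: Ero1b fell by 0.73 (adjusted p 0.0324) and Pdia3 fell by 0.53 (adjusted p 0.0451). Dnajb11, the BiP co-chaperone that followed Sdf2l1 and Creld2 among mice, was at 10.01 ± 0.15 (SD, n = 5) in WL and 9.74 ± 0.21 (n = 6) in WW (adjusted p 0.347).

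Genes of the PERK and ATF4 list, 24 tested, included the largest differences of the lists. In LW against LL 14 of them were higher and 10 lower, with 0 passing. Their median was 0.08, and 0.04 with slide as a block, so the lower genes named next do not stand for the list. Fgf21, a liver hormone of fasting and amino acid shortage, was at 9.14 ± 0.61 (SD, n = 6) in LL and 7.99 ± 0.84 (n = 5) in LW, a difference of -1.15 ± 0.40 (SE) that did not pass (adjusted p 0.173). Atf5, a transcription factor related to ATF4, differed by -0.66 ± 0.21 (adjusted p 0.145) and Cebpg, which pairs with ATF4, by -0.38 ± 0.11 (adjusted p 0.12) in the same comparison. With slide as a block these were -1.32, -0.32 and -0.30. The lipoprotein receptor gene Vldlr, named because it passed with slide as a block in WW against WL (1.47, adjusted p 0.0184, with 3.2% of all genes passing), was 0.85 ± 0.40 higher without the block (adjusted p 0.345). Asns and Slc7a11, both classical ATF4 targets, were each detected on at most 1 array and could not be tested.

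Sensors and proteases of the response gave 0 of 8 passing in each of the 7 comparisons, with 2 higher and 6 lower in LW against LL. With slide as a block, scaling to the 75th percentile or the deposited values, 4 were higher there, and with normexp 2. The lowest p-values were those of Creb3l3, a liver relative of ATF6 (-0.19 in WW against WL), Ern1, which encodes IRE1 (-0.18 in LW against LL), Wfs1, an ER membrane protein (0.19 in LW against LL), and Eif2ak3, which encodes PERK (-0.16 in LW against LL), with adjusted p-values of 0.556 to 0.653. Ern1 was at -0.31 and Wfs1 at 0.09 with slide as a block. Ern1 and Eif2ak3 were near background, each detected on 1 of 5 LW arrays. Atf6 itself was detected on at most 1 array by either of its probes. In ER-associated degradation, 0 of 18 passed in each comparison. Faf2, a recruiter of the extraction ATPase, was -0.60 ± 0.17 (SE) and Erlec1, a lectin, -0.42 ± 0.12 in LW against LL (adjusted p 0.114 and 0.107). Sel1l, the scaffold of the HRD1 ligase, was -0.39 ± 0.14 and Vcp, that ATPase, 0.30 ± 0.11 in WW against WL (adjusted p 0.209 and 0.245). Faf2 was at -0.37 and Vcp at 0.16 with slide as a block.

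Translocation and export genes gave 0 of 19 passing in each comparison, with Sec63, a translocon partner of BiP, at -0.58 ± 0.20 in WW against WL (adjusted p 0.21) and Sec61g, a translocon subunit, at -0.41 ± 0.18 in LW against LL (adjusted p 0.265). Spcs1, of the signal peptidase, was at 0.24 in WW against LW and Srpr, of the signal recognition particle receptor, at -0.32 in WW against WL. Heat shock genes of the cytosol and mitochondria, which answer to another stress pathway, gave 0 of 10 passing in each comparison. Hsph1, a cytosolic chaperone, was at 7.54 ± 0.70 (SD, n = 5) in LW and 6.72 ± 0.29 (n = 6) in WW, a difference of -0.82 ± 0.29 (SE; adjusted p 0.432). Dnajb1 and Hsp90ab1 were at -0.28 each in WW against LW and Hspa8 at -0.16 in LW against LL, or -0.05 with slide as a block.

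**Figure D5:**
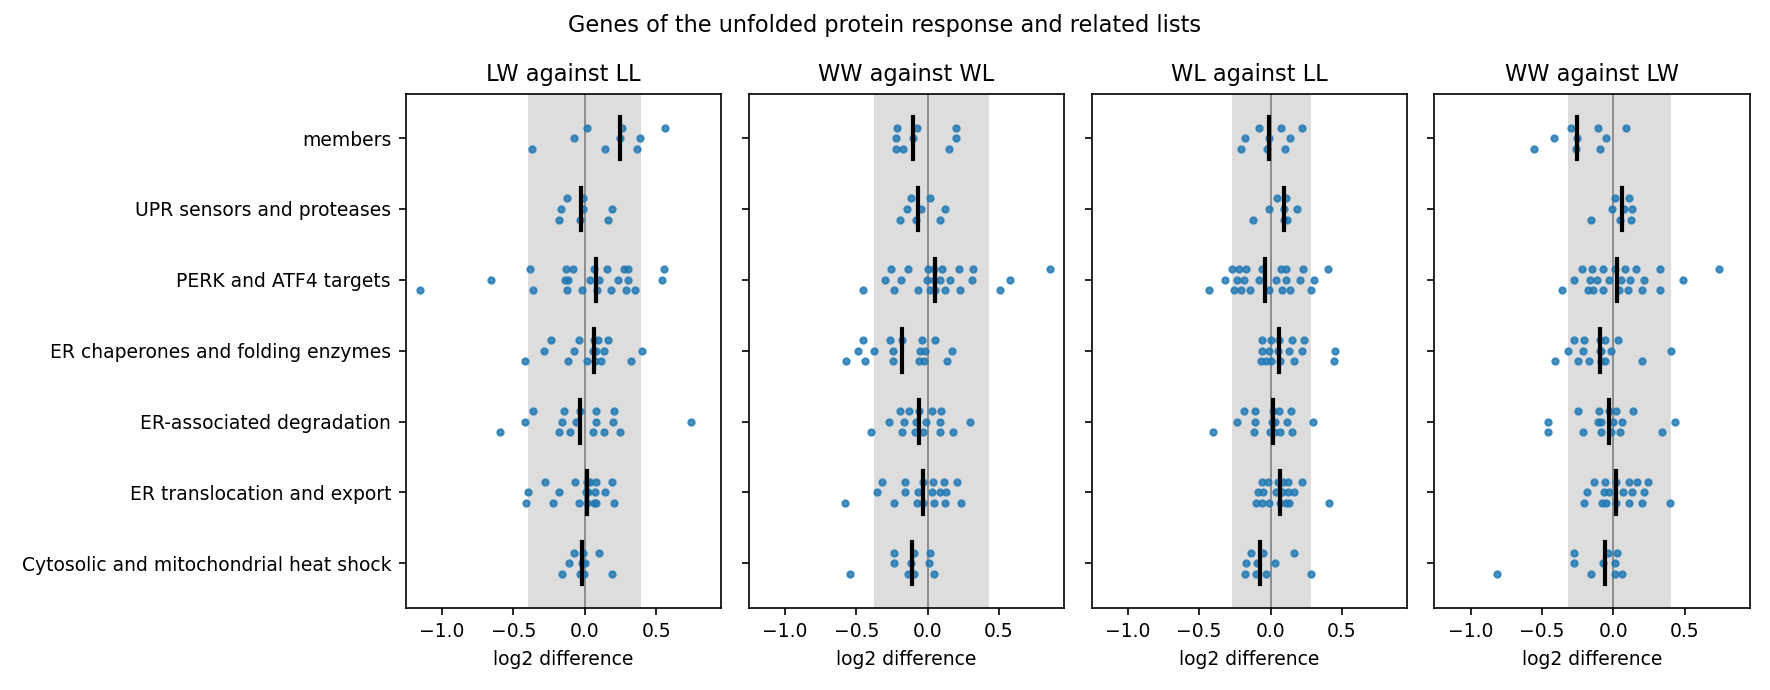
Log2 differences (horizontal axis) of the members and of the 6 pathway lists (rows) in LW against LL, WW against WL, WL against LL and WW against LW, 1 point per tested gene, with a black bar at the list median and a grey band from the 5th to the 95th percentile of all tested genes. The members' median is 0.25 in LW against LL and -0.26 in WW against LW, and that of the ER chaperones -0.18 in WW against WL.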

How the data were processed

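Liver RNA was measured on 22 arrays. Per the file headers, the deposited table gives an intensity and a detection p-value per probe and array, with background already subtracted (33.2% to 41.2% of probes per array lay below 0). The authors also deposited a normalized intensity table of unstated method, linear with array medians of 245, whose 22 columns each matched their own array best. It served as an alternative, and its centring is unknown. Extraction with TriReagent and labelling with TotalPrep are per the labels' protocols.

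Intensities were corrected and quantile-normalized with neqc (limma 3.58.1, R 4.3.3, offset 16) to log2 values. Probe names were matched to RefSeq (GRCm38.p6): 27399 by symbol, 8314 by synonym, 191 to several genes and 9377 to none. Probes with a detection p under 0.05 on at least 5 arrays were kept (16268, of which 14409 named), and the probe with the highest mean stood for each gene (9881). Group means were fitted with lmFit and eBayes, which shares 1 estimate of the spread, and tested on simulated data first. Probes near background have compressed differences, and the number of arrays limits the precision. Slides were read from the array labels.

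The members and lists were chosen with earlier results of these data known. Named were all members, every list gene that passed in a comparison, the 4 genes of each list with the smallest p in the 4 simple comparisons, and the 10 genes most like Hspa5. Since Hspa5 did not pass the filter, pairs of all members and Sdf2l1 replaced it, chosen after seeing the data, as was the test of slide. Alternatives were the deposited values, normexp with offset 50, scaling to the 75th percentile, no filter, detection on 11 arrays, single probes, slide as a fixed or random block, the replicate block, array weights, each mouse left out, and LL replicate 1 with WL replicate 5 left out. LL replicate 1 and WL replicate 5 had the lowest array weights, 0.308 and 0.567. Correlations used 100000 permutations (scipy 1.17.1). Litters are not given, so p-values measure the spread between these mice.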

Additional observations from a re-analysis of the deposited data

Results flagged for a closer look

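Of 36 sets of values (9 members in 4 groups), 2 held a mouse that lay apart from its group by Dixon's criterion, where chance gives about 1 in 20. Pdia4 in WW replicate 6 was 9.21, whereas the other WW mice lay between 9.59 and 9.77. Creld2 in LW replicate 4 was 9.31, whereas the other LW mice lay between 8.07 and 8.27. Hspa5, whose probe did not pass the detection filter, was above background on 3 arrays, all of them WW, with WW intensities from 6.4 to 18.2.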

How the results depend on the processing

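The count of members that passed was 0 in all 231 combinations of an alternative and a comparison, including the replicate block, in which replicate numbers of the labels were paired. Of 31 pairs of same-numbered mice, 16 correlated over 0.1 (r from -0.182 to 0.452), among them all 6 pairs of replicate 1 (0.302 to 0.452). Since not every pair did, the numbers were not read as a pairing. Slide means were not removed for these correlations, and same-numbered mice often shared a slide. Replicate 1 of LL, LW and WW lay on slide 1 and that of WL on slide 2. Of the members' differences under the alternatives, 1927 kept their direction and 89 changed sign without passing on either side. For the pathway lists, 1313 counts were as in the main setting and 31 were not. With slide as a block, 4 list genes passed in WW against WL (Vldlr, Gpt2, Pdia3 and Ero1b) and 3 in the average offspring-diet difference, against 0 and 1, where 3.2% and 2.51% of all genes passed. Leaving out mice in turn gave at most 1 and 4. The replicate block added Atf5, Hsp90b1, Sel1l, Vcp and Faf2 to Gpt2 in that average, where 7.97% of all genes passed. In LW against LL, Faf2 passed in limma with array weights (adjusted p 0.0474), where 1.82% of all genes did. Without LL replicate 1 and WL replicate 5, Faf2 (adjusted p 0.0424) and Derl2 (0.99, adjusted p 0.0377) passed there, with 2.07% of all genes. The cause of these changes was not tested. Hspa5 correlations could not be run because its probe was near background. Dim probes such as the dimmer Ddit3 probe limit what small differences can be seen.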
